A study of Mus musculus with 27 samples.

Results

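Ntrk2, Slc17a8, Pcp4l1 and Chrna4 are 4 of the 51826 genes counted in mouse liver over a reproductive cycle. They were selected on their measured fold changes, as receptors and transporters whose level was more than 5-fold lower at lactation, or at day 2 or day 4 after weaning, than in nulliparous liver. The values of those 3 stages against nulliparous liver therefore chose the genes, and they are given below as a description with no test. The description of the genes as silenced receptors and transporters held in part only. Ntrk2 and Chrna4 encode receptor chains and Slc17a8 a transporter, but Pcp4l1 encodes neither, and Chrna4 was higher, not lower, at lactation. The 4 genes are called here by their names.

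RNA from whole livers of mice of the inbred strain BALB/c (Balb/C in the labels) was sequenced as 27 libraries. The groups were nulliparous mice (NUL, n = 4), mice at lactation day 10 (LAC, n = 3), mice at days 2, 4, 6 and 8 after weaning, when the mammary gland involutes (ID2, n = 3; ID4, n = 4; ID6, n = 6; ID8, n = 3), and mice 4 weeks after weaning (REG, n = 4). Per the labels, the mice were matched for age, those that had litters were bred at 10 to 12 weeks of age, litters were made equal in size, and involution was started by removing the pups at 10 to 14 days of lactation. The labels name no altered allele and no agent for any group. Each library has a title number of its own and is taken here as 1 animal, named by that number (REG_239), which the labels do not state. P-values measure the spread between these libraries, which may be technical in part.

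Ntrk2 (TrkB) is a receptor tyrosine kinase that binds brain-derived neurotrophic factor (BDNF) and neurotrophin 4, and it is made both with a kinase domain and as a truncated receptor without one. Chrna4 is the alpha 4 subunit of nicotinic acetylcholine receptors, ligand-gated ion channels of 5 subunits in which it is usually joined to the beta 2 subunit, Chrnb2. Slc17a8 (VGLUT3) loads glutamate into vesicles, and Pcp4l1 is a small relative of Pcp4, a protein that binds the calcium sensor calmodulin through an IQ motif. All 4 genes are best known from neurons. In whole liver, a level is an average over hepatocytes and all other cells, so fewer cells of a type and less RNA per cell cannot be told apart.

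The deposited gene tables list 2 transcripts of Ntrk2, which share 1393 coding bases and then part. They are shown because they tell which receptor form the liver counts belong to. In GENCODE M21 on GRCm38, Ntrk2 (ENSMUSG00000055254) lies on the plus strand at chr13:58806569-59133970. Below, lower case marks the last shared coding bases and capitals the first bases found in that transcript alone, at chr13:58932023-58932060 and chr13:58985802-58985839. In the shorter transcript (ENSMUST00000109838) the capitals end with the stop codon, after 476 codons. The longer one (ENSMUST00000079828) runs on for 1073 coding bases, stop codon included, to 821 codons, and its end lies 196943 bases farther along the chromosome.
Ntrk2, shorter transcript: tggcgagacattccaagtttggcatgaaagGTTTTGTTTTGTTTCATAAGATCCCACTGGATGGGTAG
Ntrk2, longer transcript: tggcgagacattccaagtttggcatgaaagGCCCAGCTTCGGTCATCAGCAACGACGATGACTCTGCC

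Slc17a8 (ENSMUSG00000019935) lies on the minus strand at chr10:89574020-89621253, and its 2 transcripts in the tables start 21438 bases apart. The longer transcript, ENSMUST00000020102, has 4456 bases and 601 codons. The shorter, ENSMUST00000105295, has 1863 bases and 417 codons and starts at 89599815, in no exon of the longer one. The 250 bases before each start are given from RefSeq (GRCm38.p6, minus strand, written 5′ to 3′), since both transcripts had a share by the estimates given below. The first run is the sequence before the outer start as RefSeq has it, at 89621249 (chr10:89621250-89621499), which differs from the GENCODE M21 start at 89621253, so that the run ends within the longer transcript, and the second that before the inner start (chr10:89599816-89600065).
Slc17a8, before the outer start: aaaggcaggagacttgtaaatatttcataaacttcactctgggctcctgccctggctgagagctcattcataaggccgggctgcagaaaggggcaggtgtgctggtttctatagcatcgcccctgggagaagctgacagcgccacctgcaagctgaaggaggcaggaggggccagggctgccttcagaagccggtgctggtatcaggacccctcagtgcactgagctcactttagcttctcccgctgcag
Slc17a8, before the inner start: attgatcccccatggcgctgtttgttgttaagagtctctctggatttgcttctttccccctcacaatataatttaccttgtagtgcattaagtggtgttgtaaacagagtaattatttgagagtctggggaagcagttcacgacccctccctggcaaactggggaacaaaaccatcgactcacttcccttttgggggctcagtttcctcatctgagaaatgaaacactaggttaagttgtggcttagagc

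Neither run holds a TATA box (TATAAA), a STAT5-type site (TTCNNNGAA) or an E-box (CACGTG) on either strand. Among the 32851 RefSeq windows of that length, 12.4% hold the first, 7.02% the second and 6.02% the third. Absence of these letters says nothing of the factors that bind them. Pcp4l1 (ENSMUSG00000038370, minus strand, chr1:171173262-171196268) has 1 transcript of 68 codons in the tables. Chrna4 (ENSMUSG00000027577, minus strand, chr2:181018380-181043546) has 5. Ntrk2 overlaps 4 other genes of GENCODE M21, 3 of them on the opposite strand, and none of these is listed in the tables. These overlaps are of whole gene spans, and shared exons were not looked for. Since the use of strand in counting is not given in the sources used here, reads from any shared exon cannot be told apart from Ntrk2 reads. The counts of all 4 genes were whole numbers in every library.

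Libraries held 41120700 to 75664500 counts, and 16428 genes passed the filter on low counts, all 4 genes among them. Levels are in CPM, the count relative to the library total after trimmed-mean (TMM) scaling, and fold changes are from edgeR's quasi-likelihood fit over all 27 libraries. Titles of 7 animals carry numbers under 200 (2 of ID2, 2 of ID4 and all 3 of ID8), and the labels do not say what the numbers stand for. The authors' readme lists 2 sequencing runs for 16 libraries, among them all 4 of ID4 but 1 each of ID2, ID8 and REG. In the 16428 genes, 237 had a fitted level more than 5-fold below NUL in at least 1 of LAC, ID2 and ID4. By stage these were 132 genes at LAC (0.804%), 65 at ID2 (0.396%) and 65 at ID4 (0.396%). Ntrk2 passed at LAC and ID4, Slc17a8 at ID2, Pcp4l1 at LAC and Chrna4 at ID4. Krt23 lay just inside the threshold, 5.01-fold lower at LAC, and Rn7s1 just outside, 4.72-fold lower at ID2.

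Ntrk2, the neurotrophin receptor, was highest in nulliparous liver and lowest in lactation, and most livers after weaning stayed far below the nulliparous level. The NUL livers had 24.4, 18.4, 14.6 and 19.9 CPM (mean 19.3 ± 4.02, SD, n = 4). The LAC livers had 0.328, 1.27 and 1.32 CPM (0.972 ± 0.558, n = 3), from 19 to 76 counts per library. Every LAC liver was thus far under every NUL liver, a 19.9-fold difference of the means, and 11.2% of the 16428 genes had all LAC livers below all NUL livers. The like share was 8.39% at ID2, 5.44% at ID4, 1.79% at ID6, 6.03% at ID8 and 1.67% at REG. Between the later stages such shares were not counted, so gaps between those, here and below, cannot be set against all genes. The ID2 livers had 2.87, 11.1 and 4.07 CPM, the highest being ID2_31. The ID4 livers, at 1.96, 1.52, 2.40 and 1.52 CPM (1.85 ± 0.422, n = 4), were close to each other. They lay 10.5-fold below NUL and above all LAC livers.

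From ID6 on, single livers stood out for Ntrk2. The 6 ID6 livers ranged from 1.32 to 7.77 CPM with a median of 2.17. The ID8 livers had 2.87, 12.0 and 2.43 CPM, and the REG livers 3.28, 4.20, 3.28 and 17.0 CPM. ID8_14 and REG_239 were each several times above the others of their stage, and REG_239 alone reached into the NUL range. In all, 22 of the 23 livers taken after the nulliparous stage were below the lowest NUL liver. As fitted log2 fold changes against NUL with their standard errors (SE), the stages were at -4.31 (SE 0.86) for LAC, -1.68 (0.73) for ID2, -3.38 (0.72) for ID4, -2.55 (0.59) for ID6, -1.73 (0.73) for ID8 and -1.47 (0.65) for REG. Without the highest liver of its stage the value became -2.48 for ID2, -2.88 for ID8 and -2.43 for REG. In the order of stage means (NUL, REG, ID2, ID8, ID6, ID4, LAC), each neighbouring pair overlapped apart from ID4 and LAC.

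Most of the Ntrk2 estimate lay on the truncated receptor's transcript, with a share that depends on the length taken for it. The deposited tables give, per library, the mean length of a gene's transcripts weighted by their estimated share. For Ntrk2 this length was never under 7002 bases, a floor met in 3 libraries, while the longer transcript has 8744 bases. If the floor is the length of the shorter transcript in the authors' annotation (6846 bases in GENCODE M21), the kinase-coding transcript shown above made up a median of 2.38% and at most 6.14% of Ntrk2 in the 26 libraries with at least 20 Ntrk2 counts. With the GENCODE M21 length instead, its share in these libraries was 8.22% to 13.9%, with a median of 10.4%. On the former reading its share in NUL was 2.72 ± 0.346% (SD, n = 4). These shares are estimates of the authors' counting program, and no interval can be given for them.

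**Figure D1:**
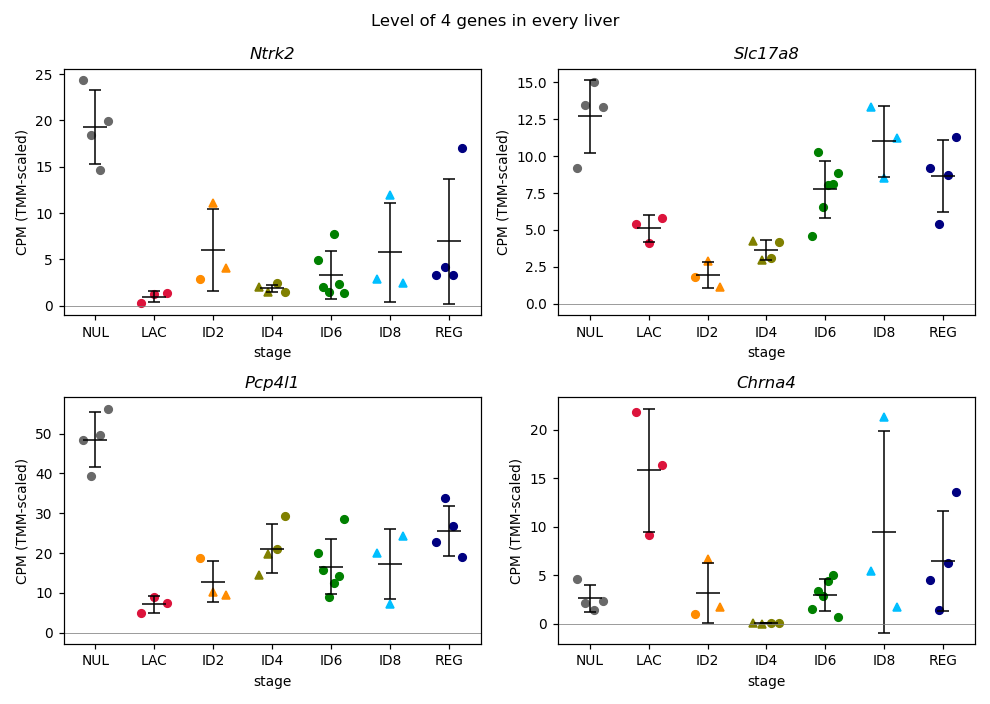
Level of each gene in every liver, in CPM after TMM scaling on a linear axis, by stage. Points are livers (triangles: title numbers under 200), and bars the mean ± SD. Pcp4l1 has all later livers below the lowest NUL liver at 39.4 CPM, while Chrna4 is highest at LAC and at most 0.0947 CPM at ID4.

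Chrna4, the nicotinic receptor subunit, moved through the widest span of the 4 genes and in both directions. NUL livers had 4.55, 2.07, 1.40 and 2.33 CPM (2.59 ± 1.37, SD, n = 4). LAC livers had 21.8, 9.10 and 16.4 CPM (15.8 ± 6.38, n = 3), so every LAC liver was above every NUL liver by a 6.10-fold difference of the means. The same absence of overlap, with LAC above, was seen for 10.2% of the 16428 genes. At ID2 the values were 1.01, 6.69 and 1.72 CPM, with ID2_31 again the highest. The means there and in NUL were 3.14 and 2.59 CPM.

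At ID4 Chrna4 was almost undetected. The 4 livers gave 6, 0, 4 and 6 counts, or 0.0912, 0, 0.0585 and 0.0947 CPM (0.0611 ± 0.0439, n = 4). The count of 0, in ID4_15, allows a level of up to 0.0495 CPM (3 counts), a limit that covers counting error only. All 4 livers were far below every other liver of the series, the next lowest being 0.723 CPM in ID6. The 2 ID4 animals with numbers under 200 and the 2 with higher numbers were alike in this, and all 4 libraries had 2 sequencing runs. The mean at ID4 was 42.3-fold below NUL and 51.4-fold below ID2, and the ID6 mean was 48.7-fold above it.

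After ID4 the Chrna4 level was higher again, with 1 ID6 liver (ID6_232) below the lowest NUL liver. The ID6 livers ran from 0.723 to 5.04 CPM with a median of 3.13. The ID8 livers had 5.44, 21.3 and 1.71 CPM and the REG livers 4.47, 1.40, 6.24 and 13.6 CPM. ID8_14 and REG_239, the animals highest in Ntrk2 at these stages, were highest in Chrna4 too. Fitted log2 fold changes against NUL were 2.6 (SE 0.81) for LAC, 0.29 (0.81) for ID2, -5.35 (1.16) for ID4, 0.20 (0.69) for ID6, 1.87 (0.80) for ID8 and 1.31 (0.75) for REG. Without ID2_31 the ID2 value was -0.94, without ID8_14 the ID8 value was 0.43, and without REG_239 the REG value was 0.64. In the order of stage means (LAC, ID8, REG, ID2, ID6, NUL, ID4), neighbours overlapped in all pairs except NUL and ID4. In 20 libraries the deposited length was that of the ENSMUST00000067120, the longest of the 5.

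Slc17a8, the vesicular glutamate transporter, was lowest at ID2, not at lactation. Its stage mean was higher at ID4, ID6 and ID8 in turn, but the difference between ID6 and ID8 did not pass its test. NUL livers had 9.20, 13.5, 15 and 13.3 CPM (12.7 ± 2.48, SD, n = 4). LAC livers had 5.40, 4.09 and 5.82 CPM (5.10 ± 0.9, n = 3), all below NUL. ID2 livers had 1.79, 2.90 and 1.15 CPM (1.95 ± 0.882, n = 3), with a mean 2.62-fold below LAC and 6.55-fold below NUL. This made Slc17a8 the gene of the 4 that was nearest to the threshold of the choice.

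From ID2 to ID6 the stages followed each other without overlap. This is a description only, as ID2 and ID4 values took part in the choice of the genes. ID4 livers had 4.27, 2.99, 3.12 and 4.20 CPM, each above every ID2 liver. ID6 livers ranged from 4.61 to 10.3 CPM with a median of 8.08, each above every ID4 liver. ID8 livers had 13.3, 8.50 and 11.2 CPM and REG livers 9.22, 5.43, 8.75 and 11.3 CPM, and both groups overlapped with NUL. Against NUL the fitted log2 fold changes were -1.32 (SE 0.28) for LAC, -2.69 (0.30) for ID2, -1.81 (0.26) for ID4, -0.72 (0.22) for ID6, -0.22 (0.27) for ID8 and -0.55 (0.25) for REG. Of the 23 later livers, 18 were below the lowest NUL liver. Ordered by mean (NUL, ID8, REG, ID6, LAC, ID4, ID2), neighbours overlapped save ID4 and ID2.

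Both Slc17a8 starts contributed at all stages. From the deposited mean lengths, the longer transcript made up 68.0 ± 6.33% of Slc17a8 in NUL (SD, n = 4), 67.6 ± 24.0% in LAC (n = 3), 59.9 ± 25.8% in ID2 (n = 3), 71.9 ± 24.5% in ID4 (n = 4), 57.3 ± 12.5% in ID6 (n = 6), 57.3 ± 6.45% in ID8 (n = 3) and 66.9 ± 9.11% in REG (n = 4). Single livers ranged from 36.0% to 100%, and the widest spreads were in the stages with the fewest counts. Mean transcript length was compared between NUL and each later stage for the 3 genes with several transcripts, in 16 two-sided exact permutation tests (without LAC for Ntrk2 and ID4 for Chrna4). The smallest p that these tests can give is 0.0286, or 0.00476 for the 6 ID6 livers, so no single one could pass after adjustment over 16. The smallest p found was that of Ntrk2 at ID2 (a difference in mean of -23.6 bases, exact permutation p = 0.0286, adjusted p = 0.457).

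**Figure D2:**
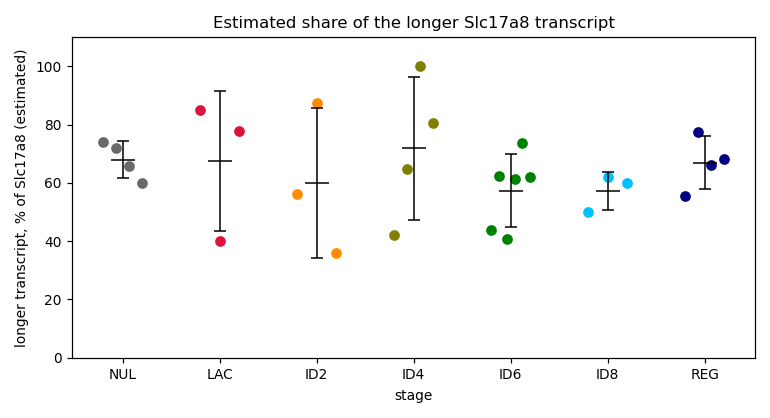
Estimated share of the longer Slc17a8 transcript (percent, linear axis from 0) in every liver by stage, with the mean ± SD as bars. The spread is widest in LAC, ID2 and ID4, where it spans from 36.0% to 100%, and the stage means lie between 57.3% and 71.9%.

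Pcp4l1, the small IQ-motif protein, was the most abundant of the 4 per unit of transcript length. In TPM, a scale that allows for transcript length, NUL means were 44.7 for Pcp4l1, 4.63 for Slc17a8, 3.45 for Ntrk2 and 0.755 for Chrna4. Its NUL livers had 48.4, 39.4, 49.7 and 56.3 CPM (48.5 ± 6.95, SD, n = 4). LAC livers had 4.90, 9.04 and 7.32 CPM (7.09 ± 2.08, n = 3), a 6.84-fold lower mean. Each liver of LAC was below all livers of NUL, as for Ntrk2 and Slc17a8.

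Pcp4l1 did not come back to the nulliparous range at any sampled time. ID2 livers had 18.8, 10.1 and 9.41 CPM and ID4 livers 14.4, 19.8, 20.9 and 29.2 CPM. ID6 livers ranged from 8.94 to 28.6 CPM with a median of 14.9, and ID8 livers had 20.1, 7.19 and 24.2 CPM. The REG livers, 4 weeks after weaning, had 22.8, 33.8, 26.7 and 19.1 CPM (25.6 ± 6.29, n = 4) and so stayed 1.89-fold below NUL in the mean. All 23 later livers were below the lowest NUL liver. That was so for 4 of the 16428 genes (0.0243%), a description only, since the 23 include the LAC, ID2 and ID4 livers whose values chose the gene. The other 3, named after their values were seen, were Npnt (5.03 CPM in NUL and 2.14 in REG), Bin2 (24.1 and 12.6 CPM) and Gm48796 (0.190 and 0.0782 CPM). Npnt encodes the matrix protein nephronectin and Bin2 a BAR-domain protein of blood cells. Fitted log2 fold changes of Pcp4l1 against NUL were -2.77 (SE 0.43) for LAC, -1.92 (0.41) for ID2, -1.20 (0.36) for ID4, -1.55 (0.32) for ID6, -1.50 (0.40) for ID8 and -0.92 (0.36) for REG. By stage mean the order was NUL, REG, ID4, ID8, ID6, ID2 and LAC, with gaps between NUL and REG and between ID2 and LAC and overlap elsewhere.

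**Figure D3:**
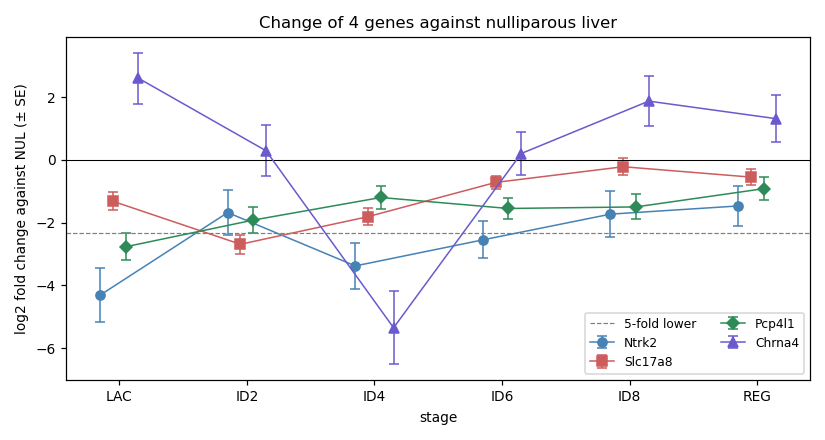
Fitted log2 fold change of each gene against nulliparous liver by stage, with bars of 1 SE from the edgeR fit. The dashed line marks a 5-fold lower level. Ntrk2 crosses it at LAC, ID4 and ID6, Slc17a8 at ID2, Pcp4l1 at LAC and Chrna4 at ID4, while Chrna4 at LAC is on the other side of 0 at 2.6.

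Comparisons among ID6, ID8 and REG compare none of the libraries that chose the genes and could be tested. The fit estimated the spread over all 27 libraries, those that chose the genes included. None of the 12 comparisons of the 4 genes passed an adjusted p of 0.05 in edgeR, and 1 had an unadjusted p under 0.05. Of all 16428 genes, 4.12% were called for ID8 against ID6, 1.69% for REG against ID6 and 0.0487% for REG against ID8, and 20.5%, 13.8% and 9.02% had an unadjusted p under 0.05. The comparison with the lowest unadjusted p was Chrna4 in ID8 against ID6, with means of 9.47 and 2.97 CPM (log2 fold change 1.67, SE 0.71, edgeR adjusted p = 0.187). Without ID8_14 it was 0.23. All ID8 animals and no ID6 animal had numbers under 200, so these 2 stages alone cannot tell stage from number range. With a covariate for numbers under 200, fitted over all 27 libraries, ID8 against ID6 was 0.16 for Chrna4, 0.35 for Ntrk2, 0.43 for Slc17a8 and 0.75 for Pcp4l1 (edgeR adjusted p from 0.502 to 0.979).

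The difference of Slc17a8 between ID8 and ID6 was 0.50 on the log2 scale (SE 0.25, edgeR adjusted p = 0.251). Its REG livers were at 0.17 relative to ID6 (SE 0.23, adjusted p = 0.813). For Pcp4l1, the REG mean of 25.6 CPM against 16.6 CPM at ID6 gave 0.62 (SE 0.32, adjusted p = 0.397), and ID8 against ID6 gave 0.04 (SE 0.36, adjusted p = 0.968). Ntrk2 was at 1.08 in REG against ID6 (SE 0.59, adjusted p = 0.438) and at 0.82 in ID8 against ID6 (SE 0.65, adjusted p = 0.516). The former was 0.12 without REG_239 and the latter -0.33 without ID8_14. The Chrna4 value of REG against ID6 was 1.11 (SE 0.67, adjusted p = 0.494), and 0.44 without REG_239. REG against ID8 gave values between -0.56 (Chrna4) and 0.58 (Pcp4l1), with adjusted p from 0.704 to 0.940. None of these differences could be told from the spread between livers.

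Within stages, livers higher in Chrna4 tended to be lower in Pcp4l1, though not in every split of the libraries. For each gene, the log2 CPM of a liver was taken relative to its stage mean, and the 6 pairs of genes were compared over 27 livers, a comparison chosen after the levels had been seen. The 27 include the NUL, LAC, ID2 and ID4 livers whose values chose the genes. The p-values allow for neither choice. For Pcp4l1 and Chrna4, Pearson's r was -0.69 (permutation within stages, p = 0.00241, adjusted over 6 pairs 0.0145) and Spearman's rho -0.62 (permutation p = 0.00613, adjusted 0.0368). Without the 2 livers farthest out in Pcp4l1 (ID6_232 and ID8_14) r was -0.57, and without ID4, where Chrna4 rested on few counts, it was -0.77. It was -0.68 over 19 animals numbered 200 and over (ID2_224, alone of its stage there, was left out) and -0.81 over the 7 numbered under 200. Split by sequencing runs, with stage means taken within each class of libraries, it was -0.82 over 9 libraries with 1 run and -0.17 over 13 with 2 runs, and so did not hold in the latter. That split leaves out the 5 libraries alone of their stage in a class (NUL_220, LAC_200, ID2_224, ID8_14 and REG_203), and 4 of the 13 are ID4 livers. With the stage means of all libraries, a variant chosen after the first values were seen, r was -0.81 over 11 libraries with 1 run and -0.60 over 16 with 2 runs.

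For Ntrk2 and Chrna4, r was 0.55 (permutation p = 0.0235, adjusted 0.0706) and rho 0.49 (permutation p = 0.0324, adjusted 0.0971), neither of which passed. With ID6_218 and REG_239 left out, r was 0.46. Split by runs in the same 2 ways, r was 0.80 over 9 libraries with 1 run and -0.17 over 13 with 2 runs, or 0.67 over 11 and 0.35 over 16. ID2_31, ID8_14 and REG_239 each lay 1.13 or more above their stage mean in both genes on the log2 scale, and ID6_218 lay 1.54 above it in Ntrk2 and 0.81 in Chrna4. ID2_31 also had 1460 CPM summed over 10 genes of the pancreatic acinar cell, against 6.13 to 103 CPM in all other libraries. The same sum was 14.0 CPM in ID6_218, 11.0 CPM in ID8_14 and 16.7 CPM in REG_239. The other 4 pairs had r between -0.36 and 0.34, with adjusted permutation p of 0.258 or more.

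**Figure D4:**
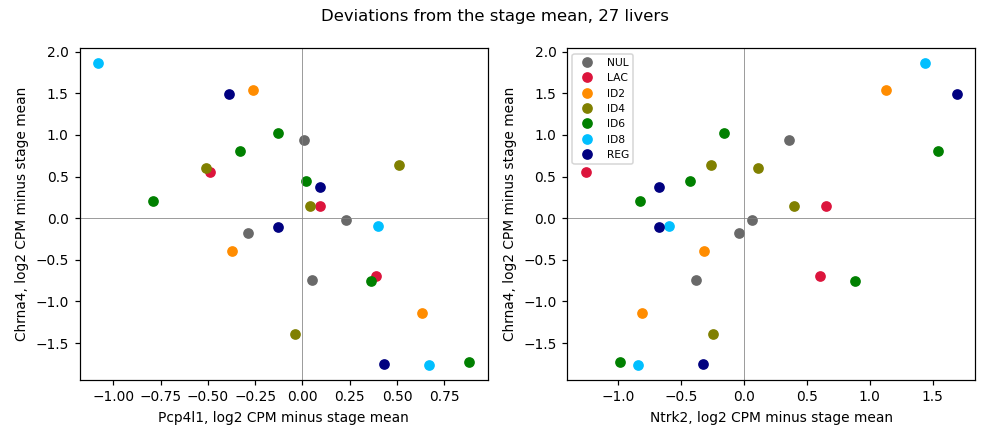
Log2 CPM of Chrna4 in every liver relative to its stage mean (vertical axes), against the same for Pcp4l1 (left) and Ntrk2 (right), with 1 point per liver in the colour of its stage. The left cloud slopes down (r = -0.69), and 3 livers on the right, of ID2, ID8 and REG, lie 1.13 or more above their stage mean in both genes.

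Each gene's level was next compared with that of 10625 genes over the 27 livers, and the 3 genes with the highest Spearman's rho were taken. For Chrna4 these were Acss2 (rho 0.98), which makes acetyl-CoA from acetate, Pmvk (0.95), which phosphorylates phosphomevalonate in the mevalonate pathway, and Acsl5 (0.94), which activates long-chain fatty acids. These genes were picked for their rho over the same livers, so the values that follow describe them and test nothing. The deviations from stage means had r of 0.89, 0.82 and 0.85. Spearman's coefficient was 0.97, 0.92 and 0.91 over the 16 libraries with 2 runs and 0.98, 0.97 and 0.94 over the 11 with 1 run.

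Like Chrna4, the 3 genes were at their lowest at ID4 and highest at LAC by stage mean, but over a far smaller span. Acss2 was at 146 CPM in NUL, 346 at LAC, 187 at ID2, 60.6 at ID4, 170 at ID6, 293 at ID8 and 241 at REG. Its ID4 livers, at 62.4, 51.2, 73.6 and 55.2 CPM, were all below every other liver, the next being 104 CPM. ID8_14 had 515 CPM of Acss2 and REG_239 had 406 CPM, the highest of their stages. Pmvk was at 55.0 CPM in NUL, 118 at LAC and 20.6 at ID4, and Acsl5 at 406 CPM in NUL and 700 at LAC.

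**Figure D5:**
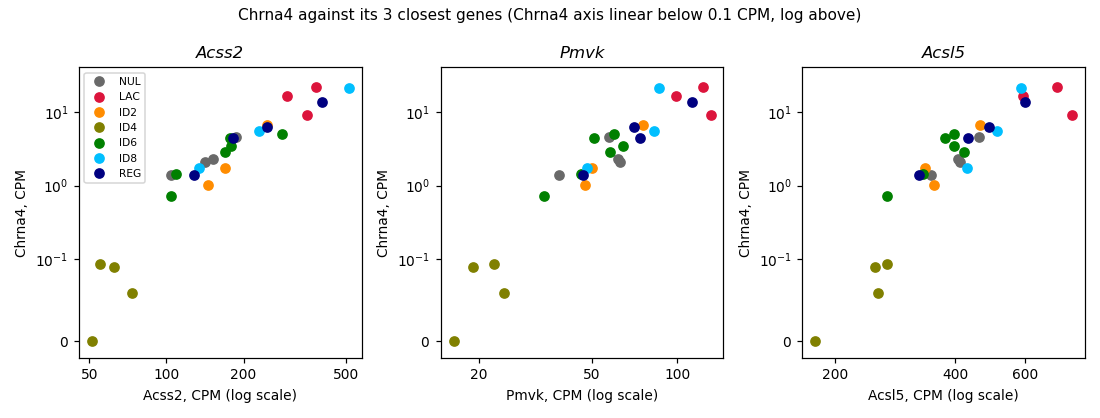
Chrna4 against Acss2, Pmvk and Acsl5 in CPM, with 1 point per liver in the colour of its stage and log axes, the Chrna4 axis being linear below 0.1 CPM. The 4 ID4 livers lie at the bottom left, apart from the rest on the Chrna4 axis, and the LAC livers towards the top right (rho 0.98, 0.95 and 0.94).

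The other 3 genes had no companion as close. For Ntrk2 they were Car3 (rho 0.78), a carbonic anhydrase, Ltbp4 (0.74), which binds latent TGF-beta, and Rapgef5 (0.72), an exchange factor for small GTPases. For Slc17a8 they were Pex11a (0.79), a peroxisome membrane protein, Pllp (0.79), the membrane protein plasmolipin, and Cyp2d9 (0.75), a cytochrome P450. For Pcp4l1 they were Cox6b2 (0.80), a cytochrome oxidase subunit, Tnfaip8l1 (0.80) and Ankrd55 (0.79). Ankrd55 was at 13.7 CPM in NUL, 3.66 at LAC and 11.0 at REG, where Pcp4l1 was at 48.5, 7.09 and 25.6 CPM. The deviations from stage means of Tnfaip8l1 and Ankrd55 had r of 0.73 and 0.69 with those of Pcp4l1, and those of Rapgef5 had r of 0.09 with those of Ntrk2. Over the 20 libraries numbered 200 and over, rho of Cyp2d9 was 0.62, which ranked 64 among all genes. Over the 11 libraries with 1 run, rho was 0.54 for Ankrd55, 0.55 for Ltbp4 and 0.57 for Rapgef5, and for the other 6 genes 0.65 to 0.77. Over the 16 with 2 runs, the 9 genes had rho of 0.66 to 0.91.

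Of 26 other genes of neurotrophin signalling, 22 were tested. Against NUL, 2 were called higher and 1 lower at LAC, where edgeR called 11.2% of all genes (5.19% higher, 6.0% lower), a share near that of the list. The lower gene was Ngfr, the p75 co-receptor of the neurotrophins, at 3.23 ± 0.435 CPM against 4.64 ± 0.477 in NUL (log2 fold change -0.52, SE 0.15, adjusted p = 0.0247). The higher ones were Sorcs3, a sorting receptor, and Ptpn11, the phosphatase SHP2, at 105 ± 7.60 against 85.7 ± 8.24 CPM (0.29, SE 0.10, adjusted p = 0.0481). The call of Ngfr was lost without LAC_213, LAC_240, NUL_220 or NUL_226 and with the compared groups alone. That of Sorcs3 was lost without LAC_240. That of Ptpn11 was lost in 5 of 8 alternatives and in 6 of 7 fits that left out a library, all but the one without NUL_227. Bdnf, the main ligand, was called lower at ID2 (0.581 against 1.20 CPM) and at ID4 (0.536 CPM), where 3.24% (2.32% higher, 0.919% lower) and 4.25% (2.64% higher, 1.61% lower) of all genes were called. The count of 1 in 22 at each of these stages is near those shares. The ID2 call of Bdnf was lost without the low-count filter, with the title-number covariate, on log2(TPM + 0.1), with the compared groups alone, and without ID2_224, ID2_39, NUL_220, NUL_221 or NUL_227. The ID4 call was lost in none of these kinds of fit. Neither edgeR nor DESeq2 called a gene of the list at ID6, ID8 or REG, where edgeR called 1.08%, 0.499% and 0.0852% of all genes, and 1, 0 and 3 genes of the list had an unadjusted p under 0.05 in edgeR. All these comparisons share the NUL livers. The median log2 fold change of the list was between -0.09 and -0.02 at the 6 stages, and that of all genes between -0.02 and 0. The related receptor Ntrk3 was at most 0.382 CPM in any liver.

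Among the other nicotinic and cholinergic genes, edgeR called 1 at any stage. Of 32 genes of the list, 14 were tested, and the 1 called, at LAC, ID2 and ID4, was Ly6e, a membrane protein of the Ly6 family, whose members include modulators of nicotinic receptors. Ly6e rose to 496 ± 27.9 CPM at LAC, 520 ± 82.3 at ID2 and 569 ± 82.4 at ID4, against 340 ± 65.6 in NUL (at ID4 log2 fold change 0.74, SE 0.14, edgeR adjusted p = 0.00237). Of all genes, edgeR called 11.2% at LAC, 3.24% at ID2 and 4.25% at ID4, and with 14 genes tested a count of 1 does not set the list apart from them. The ID4 call of Ly6e held in all 16 alternatives. The LAC call was lost on both log2(TPM) scales and without LAC_200, LAC_240, NUL_221 or NUL_227. The ID2 call was lost on those scales, with the title-number covariate, with the compared groups alone and without ID2_31, ID2_39, NUL_221 or NUL_227. DESeq2 called 2 genes of the list at LAC and 1 at ID6, where edgeR called 0 (3 with an unadjusted p under 0.05). The beta 2 partner Chrnb2 ranged from 1.34 to 2.75 CPM over all livers, with stage means of 2.17 CPM at LAC and 1.54 CPM at ID4. Chrna2, another alpha subunit, ranged from 1.48 to 9.14 CPM and was at 2.92 CPM at ID4. Chrna5 had no count in any library, and Chrna7 and Chrnb4 were at most 0.116 and 0.0159 CPM. The median log2 fold change of the list was -0.30 at LAC, against -0.01 for all genes, and between -0.02 and 0.08 at the other stages.

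Among 25 genes of the SLC17 family and of glutamate transport and metabolism, 21 were tested. At ID2, when Slc17a8 was lowest, 6 rose, each called by edgeR, where 2.32% of all genes were called higher. They were Slc38a3, Slc38a4, Gls2, Got1, Got2 and Gpt, which carry or convert glutamine, glutamate and related amino acids. Slc38a3, the liver's glutamine transporter, was at 2280 ± 534 CPM against 1210 ± 173 in NUL (0.91, SE 0.16, edgeR adjusted p = 0.0011), and Got1, the cytosolic aspartate aminotransferase, at 738 ± 43.4 against 382 ± 55.5 CPM (0.95, SE 0.14, adjusted p = 0.000252). The calls of Slc38a3, Got1 and Gpt at ID2 held in every alternative fit, those of Gls2 and Slc38a4 were each lost without 1 library (ID2_31 and ID2_39), and that of Got2 was lost in 5 of 8 alternatives and without ID2_224, ID2_39, NUL_221 or NUL_226. Gls2 also lost its call in 4 of the 8 and Slc38a4 in 1. At LAC, where 5.19% of all genes were called higher and 6.0% lower, the phosphate and organic anion transporters Slc17a1 and Slc17a4 and the aminotransferase Gpt2 rose and Slc38a4 fell. With 21 genes tested, these 4 calls do not set the list apart from all genes, of which 11.2% were called. Gpt2 was at 175 ± 12.9 against 98.2 ± 16.8 CPM (0.83, SE 0.21, adjusted p = 0.0127) and Slc17a4 at 82.9 ± 4.16 against 57.1 ± 7.03 CPM (0.54, SE 0.14, adjusted p = 0.0135). Without LAC_213 the calls of Slc17a1, Slc17a4 and Slc38a4 were lost, and without LAC_240 that of Gpt2. Slc17a1 also lost its call on both log2(TPM) scales and without LAC_200, NUL_220 or NUL_227. At ID4, where 2.64% of all genes were called higher, Slc1a2, a plasma membrane glutamate transporter, and Gpt rose. Slc1a2 lost its call in 3 of 8 alternatives and without ID4_13, ID4_215, NUL_220 or NUL_221, and Gpt in 6 of 8 and without ID4_13, ID4_211, ID4_215, NUL_221, NUL_226 or NUL_227. At ID8, where 0.499% of all genes were called, Got1 rose. That call was lost under RLE scaling, on both log2(TPM) scales, with the title-number and the run covariate, with the compared groups alone, and without ID8_101b, ID8_14, NUL_221, NUL_226 or NUL_227. At ID6 and REG, where 1.08% and 0.0852% of all genes were called, edgeR called 0 genes of the list, DESeq2 called 2 and 0, and 7 and 3 had an unadjusted p under 0.05 in edgeR. The median of the list was 0.10 at ID2 and 0.14 at ID4, against -0.02 for all genes at both, and between -0.06 and -0.03 at the other 4 stages, against -0.01 to 0.

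Of 25 genes of calmodulin and its targets, 23 were tested. EdgeR called 4 of them at LAC, 1 at ID2, 2 at ID4 and 2 at ID6, where it called 11.2%, 3.24%, 4.25% and 1.08% of all genes. The count of 1 at ID2 is near that share. With 23 genes tested, the counts at LAC and ID4 do not set the list apart from all genes either. At LAC the kinases Camk1d (12.5 ± 0.353 against 9.08 ± 1.38 CPM; 0.46, SE 0.11, edgeR adjusted p = 0.00487) and Camkk2 rose, and the scaffold Iqgap1 (9.77 ± 1.50 against 14.3 ± 1.07 CPM; -0.54, SE 0.13, adjusted p = 0.00755) and the kinase Mylk fell. Without LAC_213 the calls of Iqgap1, Mylk and Camkk2 were lost. Mylk also lost its call without LAC_200, NUL_226 or NUL_227, and Camkk2 in every fit that left out a library except the one without NUL_226. On both log2(TPM) scales Camk1d, Camkk2 and Mylk lost their LAC calls. Camk1d and Mylk also lost them with the compared groups alone, and Camkk2 without the low-count filter. At ID2, Ppp3cc, a calcineurin subunit, rose, though not without ID2_39. At ID4, Camkk2 rose (31.8 ± 2.18 against 23.2 ± 1.56 CPM; 0.45, SE 0.09, adjusted p = 0.00247) and Camk4 fell (0.502 ± 0.0878 against 1.25 ± 0.525 CPM; -1.32, SE 0.34, adjusted p = 0.023), the latter not without ID4_13, ID4_15, NUL_221 or NUL_226, on the log2(TPM) scales or with the title-number covariate. At ID6 both Camk1d and Camkk2 rose. Camk1d lost this call on both log2(TPM) scales, and Camkk2 with the compared groups alone and without ID6_232, NUL_220, NUL_221 or NUL_227. At ID8 and REG edgeR called no gene of the list (2 and 3 had an unadjusted p under 0.05, and DESeq2 called 0 and 1). The median of the list was between -0.05 and 0.04 at the 6 stages. Pcp4, the namesake of Pcp4l1, was at most 0.224 CPM in any liver.

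Markers of the cells a whole liver holds differed between stages too, and their part in the levels of the 4 genes was not tested. Summed over 8 hepatocyte markers found of 9, NUL libraries had 97200 to 126000 CPM and LAC libraries 184000 to 228000. Most of that was albumin (Alb), at 74700 to 98200 CPM in NUL and 160000 to 203000 at LAC, and the other 7 markers summed to 22600 to 28300 and 24000 to 25000 CPM, which overlap. At LAC the sums of other cells were lower than in any NUL liver: 233 to 241 against 296 to 343 CPM for 8 stellate cell markers, at most 238 against 250 to 293 for 7 endothelial, 243 to 344 against 358 to 462 for 7 Kupffer cell and 21.4 to 28.0 against 33.9 to 47.2 for 6 cholangiocyte markers. The sum of 10 neuron markers was 11.8 to 14.5 CPM at LAC and 16.6 to 18.9 in NUL. It was at 11.8 or more in every library, and one of these markers, Snap25, was at 0 in all. Syt1 made up most of that sum, at 10.2 to 21.4 CPM over all libraries, and the other markers summed to 1.33 to 1.69 CPM at LAC, 1.92 to 2.53 in NUL and 1.89 to 2.54 at ID4. For 7 glia and Schwann cell markers the sums were 0.997 to 2.46 at LAC and 2.21 to 3.06 in NUL. At ID4, where Chrna4 was nearly absent, neuron markers (15.8 to 19.9 CPM) and glia markers (2.48 to 3.09 CPM) overlapped with NUL, and Kupffer cell markers were at 609 to 669 CPM.

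Of the remaining sums, those of 7 islet genes and 5 adipocyte genes were at most 2.82 and 3.95 CPM in any library. The 10 acinar genes summed to 6.16 to 9.85 CPM at LAC and 17.6 to 21.4 CPM in NUL. Of these, Cela1 was at 5.77 CPM or more in every library, while each of the others was at 0 in 15 to 23 of the 27 libraries. Sums this low thus say little of acinar cells. The 14 genes of the circadian clock summed to 273 to 303 CPM in NUL, 275 to 312 at LAC and 321 to 415 at ID2. The sums were 289 to 321 CPM at ID4, 254 to 331 at ID6, 280 to 327 at ID8 and 267 to 336 at REG. All ID2 livers were thus above every NUL liver, and the highest livers of LAC and of the other 4 stages were too. Such a sum can hide opposite changes of single genes. Over all libraries Dbp ranged from 0.594 to 42.8 CPM, Nr1d1 from 5.46 to 60.7 and Per1 from 2.3 to 32.3. Others of the list ranged less, such as Clock, from 33.3 to 54.2 CPM. The hour at which livers were taken is not given in the sources used here, and its part in these levels was not tested.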

How the data were processed

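RNA from frozen whole livers was sequenced as 27 libraries, and genes were quantified with RSEM 1.3.1 and STAR 2.6.1a on mm10 (GRCm38), per the submitters' processing notes. Strand setting, trimming and annotation release are not given in the sources used here. The deposited expected counts are RSEM's estimates of reads per gene, per the file headers, and are not normalised. The deposited TPM values scale them by length to a fixed total, per the file headers. The deposited length is the mean over a gene's transcripts weighted by their estimated share, per the file headers.

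Expected counts were rounded to whole numbers. In R 4.3.3, edgeR 4.0.16 was run with filterByExpr, TMM and a robust quasi-likelihood fit of all 27 libraries with 7 groups (16428 genes, common dispersion 0.036, biological coefficient of variation 0.19). Benjamini-Hochberg adjustment was over all genes of a comparison, with calls at 0.05, and tests were two-sided. The fit was tested on simulated counts. Symbols were taken from GENCODE M21 for 51633 of 51826 identifiers, and the deposited length of Ntrk2 differs from that release. Log2 CPM used a prior count of 2, and pair correlations 100000 permutations within stages. Likeness was ranked over genes whose log2 CPM averaged 1 or more. Alternatives used RLE scaling, no filter, DESeq2 1.42.0, limma 3.58.1 on log2(TPM + 1) and log2(TPM + 0.1), the compared groups alone, title numbers under 200 as a covariate, and each library left out. A covariate for the number of sequencing runs was added after seeing the data. The genes given with SE are, per list, the 2 called ones with the largest change at LAC, ID2 and ID4 and a mean log2 CPM of at least 0. Other list genes were named for their role or after their values were seen. The 4 genes, the 4 pathway lists and the 11 marker lists were chosen with earlier results of these data known.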

Additional observations from a re-analysis of the deposited data

Results flagged for a closer look

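The Ntrk2 level of REG_239, 17.0 CPM, lay far from the other 3 REG livers, which had 3.28 to 4.20 CPM. Its gap to the nearest of them was 0.933 of the range of the group, above the critical value of 0.829 for 4 samples. Such a gap was looked for in 16 combinations of gene and stage with 4 or 6 livers, and chance gives about 1 in 20.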

How the results depend on the processing

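None of 200 alternative fits of the 12 comparisons among ID6, ID8 and REG gave an adjusted p under 0.05 (smallest 0.137), and 15 had the opposite sign. Pcp4l1 in ID8 against ID6 (0.04) became -0.14 and -0.16 on log2(TPM + 1) and log2(TPM + 0.1), and -0.01 with a covariate for the number of sequencing runs. Fitted with a covariate for title numbers under 200, REG against ID8 was -0.13 for Pcp4l1 and 0.94 for Chrna4. That covariate also moved Chrna4 to -0.94 (ID2 against NUL), -6.21 (ID4 against NUL), 0.36 (ID8 against NUL) and -3.54 (ID2 against LAC), and Pcp4l1 to -0.79 (ID8 against NUL). On log2(TPM + 1), which shrinks the changes of low genes, Ntrk2 was at -1.92 (LAC), -1.75 (ID4) and -1.5 (ID6) against NUL, 0.75 for ID2 and 0.83 for REG against LAC and -0.57 for ID4 against ID2. Slc17a8 was at -1.02 (LAC), -1.71 (ID2) and -1.32 (ID4) against NUL and -0.69 for ID2 against LAC. Chrna4 was at 1.58 (LAC) and -0.74 (ID4) against NUL, -0.76 for ID4 against ID2 and 0.81 for ID6 against ID4. The last 3 were -2.59, -2.48 and 2.67 on log2(TPM + 0.1).

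Leaving out each library in turn gave, for Ntrk2, ranges of -2.48 to -1.34 (ID2 against NUL), -2.88 to -1.36 (ID8 against NUL), -2.43 to -1.24 (REG against NUL), -2.04 to -0.90 (ID4 against ID2), -0.33 to 1.27 (ID8 against ID6) and -0.70 to 1.40 (REG against ID8). For Chrna4 they were -3.54 to -1.89 (ID2 against LAC), -0.94 to 0.71 (ID2 against NUL), 0.43 to 2.37 (ID8 against NUL), -6.06 to -4.41 (ID4 against ID2) and -1.24 to 0.88 (REG against ID8). For Pcp4l1 in ID8 against ID6 the range was -0.30 to 0.41. For Ntrk2 and Chrna4, the end farther from the full fit came each time from leaving out ID2_31, ID8_14 or REG_239. Differences in mean transcript length (bases) ranged, for Slc17a8, from -565 to 99.7 (ID2), -142 to 359 (ID4), -232 to 347 (LAC) and -121 to 70.4 (REG), for Ntrk2 from -24.8 to 10.9 (ID4), -5.48 to 7.86 (ID6) and -15.0 to 22.1 (ID8), and for Chrna4 from -92.5 to 255 (ID2), -121 to 255 (ID6), -308 to 255 (ID8), -198 to 255 (LAC) and 0 to 340 (REG).

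Genes of the 4 pathway lists called higher and lower numbered 8 and 4 at LAC, 8 and 1 at ID2, 4 and 2 at ID4, 2 and 0 at ID6, 1 and 0 at ID8, and 0 and 0 at REG. Both log2(TPM) fits called 3 higher at LAC, 5 at ID2, 2 at ID4, 1 at ID6 and 0 at ID8, and 1 lower at ID4. Lower genes at ID2 numbered 0 on log2(TPM + 0.1), without the filter and under the title-number covariate. The latter left 4 higher at ID2, 2 higher and 1 lower at ID4, and 0 at ID8, where RLE scaling, the run covariate and the compared groups alone also gave 0. The compared groups alone gave 2 lower at LAC and 1 higher and 1 lower at ID6. DESeq2 called 8 lower at LAC, 2 lower at ID6 and 1 higher at REG. Leaving out each library gave 3 to 8 higher and 0 to 5 lower at LAC, 4 to 9 and 0 to 1 at ID2, 2 to 4 and 1 to 2 at ID4, 1 to 3 and 0 to 1 at ID6, 0 to 1 higher at ID8 and 0 to 1 higher at REG. The cause of these changes was not tested. No paired analysis was possible because no title number occurs in more than 1 group. Depth limits Chrna4 at ID4 (at most 6 counts) and Ntrk2 at LAC (19 counts in 1 library).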
